A study of Homo sapiens with 12 samples.

Results

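Expression of 38 genes of cholesterol and fatty acid synthesis was examined in 2 human B cell lymphoma lines, SUDHL6 and SUDHL16, before and after each had acquired resistance to venetoclax, an inhibitor of the survival protein BCL2. The genes were listed by symbol, all 38 were found among the 60675 Ensembl identifiers of each library through GENCODE release 44, and all 38 passed the filter on low counts in every fit. By role they comprise 8 enzymes of the mevalonate arm, 10 of the sterol arm, 5 genes of SREBP control, 5 of uptake, esterification and sensing, 3 GRAMD1 genes and 7 of fatty acid synthesis.

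There were 4 groups of 3 libraries each, SUDHL6-parental, SUDHL6-resistant, SUDHL16-parental and SUDHL16-resistant, made from total RNA of cultured diffuse large B cell lymphoma (DLBCL) cells. Parental cells came from a cell bank, and each resistant line was grown out under stepwise higher venetoclax (ABT-199) and then kept in the drug. Cells were put in fresh medium for experiments, and whether it held venetoclax when RNA was taken is not given in the sources used here, so acquired resistance and long or continued exposure cannot be told apart. Each resistant line was derived once, and nothing states whether its libraries came from separate cultures, so p-values measure the spread between libraries only. SUDHL6 libraries used the NEBNext Ultra II kit on a HiSeq instrument, whereas SUDHL16 RNA went through Ribo-Zero Plus and the stranded total RNA kit of Illumina on a NovaSeq, so kit and line cannot be told apart either.

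Cells build cholesterol from acetyl-CoA, first to isoprenoids in the mevalonate arm and then through squalene and lanosterol in the sterol arm. SREBP2, encoded by SREBF2, mainly drives the genes of this route, and SREBP1, encoded by SREBF1, mainly drives those of fatty acids. SCAP carries both from the endoplasmic reticulum to the Golgi for activation when sterols are low, and the INSIG proteins hold SCAP back when sterols are high. GRAMD1 proteins (Asters) sit in the endoplasmic reticulum and bring cholesterol there from the plasma membrane, while the liver X receptors NR1H2 and NR1H3 sense oxysterols and raise SREBF1 and MYLIP.

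The libraries differed in depth and in spread. Totals were 33992784 to 40885665 counted reads in SUDHL6 and 4131927 to 22068221 in SUDHL16, and the biological coefficient of variation from edgeR was 0.0516 and 0.468, so that a change of a given size was far easier to detect in SUDHL6. The lowest total was that of the SUDHL16-parental library CE-26, which stood apart with a protein-coding share of 55.4%, while the remaining SUDHL16 libraries had 84.3% to 90.2%, and with a count on 34938 genes against 20896 to 24655. SUDHL16 differences are therefore also given without it, where the coefficient of variation was 0.339. The B cell markers MS4A1, CD79A, CD79B, PAX5 and CD22 had at least 836 counts in every library. Of the T cell markers, CD3E had 196 to 284 counts in SUDHL16-resistant libraries against 13 to 21 in SUDHL16-parental ones, while CD3D and CD2 were at 0 in all 3 resistant libraries. The other T cell, myeloid and epithelial markers had at most 33 counts in any library. In bulk RNA, fewer cells of a kind and less RNA per cell cannot be told apart.

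Promoters are shown for 6 members, the 2 SREBP genes, the SREBP targets HMGCS1, INSIG1 and SCD, and NSDHL, the synthesis enzyme with the clearest change. Each is the 200 bases before the first listed RefSeq start on the GRCh38.p14 build, read 5′ to 3′ on the strand of the gene. Capitals mark TCACNCCAC (a form of the sterol regulatory element), CCAAT (the box bound by NF-Y) and GGGCGG (the GC box bound by SP1), searched on both strands, so that ATTGG and CCGCCC are the same boxes read in reverse. Matches were allowed to overlap, as in the paired GC boxes of INSIG1 and in CCAATTGG of NSDHL.
SREBF2 (chr22:41832905-41833104, plus strand): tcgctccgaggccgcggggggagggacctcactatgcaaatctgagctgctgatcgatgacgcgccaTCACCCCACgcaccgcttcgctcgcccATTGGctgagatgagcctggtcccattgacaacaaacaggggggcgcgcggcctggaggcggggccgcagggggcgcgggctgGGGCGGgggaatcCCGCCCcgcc
HMGCS1 (chr5:43313413-43313612, minus strand): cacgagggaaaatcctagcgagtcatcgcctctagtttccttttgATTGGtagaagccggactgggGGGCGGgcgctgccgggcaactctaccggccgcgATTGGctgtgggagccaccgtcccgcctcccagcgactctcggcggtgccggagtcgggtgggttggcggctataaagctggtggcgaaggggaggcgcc
INSIG1 (chr7:155297678-155297877, plus strand): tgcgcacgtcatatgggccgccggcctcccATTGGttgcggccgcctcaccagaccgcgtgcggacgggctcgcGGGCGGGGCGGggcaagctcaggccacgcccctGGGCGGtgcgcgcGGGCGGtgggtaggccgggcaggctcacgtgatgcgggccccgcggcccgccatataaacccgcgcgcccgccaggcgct
SREBF1 (chr17:17836987-17837186, minus strand): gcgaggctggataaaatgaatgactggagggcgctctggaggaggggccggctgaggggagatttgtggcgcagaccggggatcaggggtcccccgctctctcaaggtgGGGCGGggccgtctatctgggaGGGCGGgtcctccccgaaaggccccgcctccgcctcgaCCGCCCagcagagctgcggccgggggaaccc
SCD (chr10:100347033-100347232, plus strand): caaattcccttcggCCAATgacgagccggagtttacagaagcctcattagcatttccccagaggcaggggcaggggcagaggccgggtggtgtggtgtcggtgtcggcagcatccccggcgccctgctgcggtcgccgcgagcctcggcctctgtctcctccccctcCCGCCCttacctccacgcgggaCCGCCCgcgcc
NSDHL (chrX:152830863-152831062, plus strand): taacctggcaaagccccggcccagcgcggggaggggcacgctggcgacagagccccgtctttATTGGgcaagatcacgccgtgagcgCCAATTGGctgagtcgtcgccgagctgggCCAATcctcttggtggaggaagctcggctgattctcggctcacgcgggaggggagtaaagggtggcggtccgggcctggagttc

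Over the 33 members matched in the RefSeq promoter table, 49 starts were listed, each with 250 bases before and 50 after it. TCACNCCAC occurred at 1 of the 49, that of SREBF2 shown above, where its first base lies 133 bases before the start, and at 1.13% of all 35116 promoters in the table. CCAAT occurred at 29 of the 49 (59.2%), against 34.6% of all promoters, and GGGCGG at 41 (83.7%), against 45.0% of all promoters and 56.3% of those of protein-coding genes. NSDHL had 5 CCAAT matches and no GGGCGG, and SREBF1 had 3 GGGCGG matches and no CCAAT. These matches describe letters within a fixed window and not bound sites.

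Per kilobase of exon, SCD, the desaturase that makes oleate, was the most abundant of the 38 transcripts in each of the 4 groups. Its mean level was 241 ± 0.312 RPKM, the count scaled to library size and exon length (SD, n = 3), in SUDHL6-parental, 196 ± 2.48 in SUDHL6-resistant, 105 ± 28.7 in SUDHL16-parental and 246 ± 79.3 in SUDHL16-resistant libraries. In SUDHL16-parental libraries SREBF2 (92.3 ± 26.7 RPKM) and ACLY (91.5 ± 20.6 RPKM) were within the spread of SCD, and with the longest transcript as the length SREBF2 came first there. The lowest per kilobase were GRAMD1B in both parental groups (0.0538 ± 0.0218 RPKM in SUDHL6 and 0.246 ± 0.426 RPKM in SUDHL16), ELOVL6 in SUDHL6-resistant libraries (0.556 ± 0.0360 RPKM) and GRAMD1C in SUDHL16-resistant ones (1.58 ± 0.436 RPKM, with NR1H3 within its spread).

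Resistant and parental libraries were compared within each line. Calls required at least 1.5-fold and, by the quasi-likelihood test of edgeR, a Benjamini-Hochberg adjusted p under 0.05 over all genes tested. Levels below are given as CPM, in which each count is divided by its library's total after TMM adjustment within the line, and changes are log2 fold changes of resistant against parental libraries, positive where the resistant ones were higher.

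In SUDHL6, GRAMD1B rose and NSDHL and FADS1 fell, and NSDHL was the only one of the 18 synthesis enzymes called. These 3 of the 38 members were called (7.89%), against 8.96% of all 16662 genes tested. Calls in the higher direction comprised 1 member against 4.31% of all genes, and in the lower direction 2 members against 4.65%. At any fold, 17 of 38 members had an adjusted p under 0.05, against 37.3% of all genes. The median log2 fold change was -0.04 over the members and 0.00 over the protein-coding genes tested, as rounded.

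In SUDHL16, no synthesis enzyme was called, whereas SREBF1 and the fatty acid genes ELOVL6, FADS1 and FADS2 rose. These 4 members were called (10.5%), against 5.30% of all 15708 genes tested, and all 4 were in the higher direction, in which 3.20% of all genes were called. Without CE-26, 6 of 38 were called (15.8%), against 10.0% of 16280 genes. Of these, 5 were higher (SREBF1, GRAMD1B, ELOVL6, FADS1 and FADS2), against 6.73% of all genes, and ACLY was lower, against 3.32%. The median over the members was 0.17 with all libraries and 0.07 without CE-26, beside 0.04 and 0.06 over protein-coding genes. Of the 6 calls without CE-26, 2 remained when CE-25 was also left out (GRAMD1B and FADS1) and 3 when CE-27 was (these and FADS2). The count of 4 was not kept without any of the other libraries. It was 0 without CE-25, CE-28 or CE-29 and 1 (FADS2) without CE-27 or CE-30. The share of all genes called in these fits was not counted, so the smaller counts are not a result about the members.

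**Figure D1:**
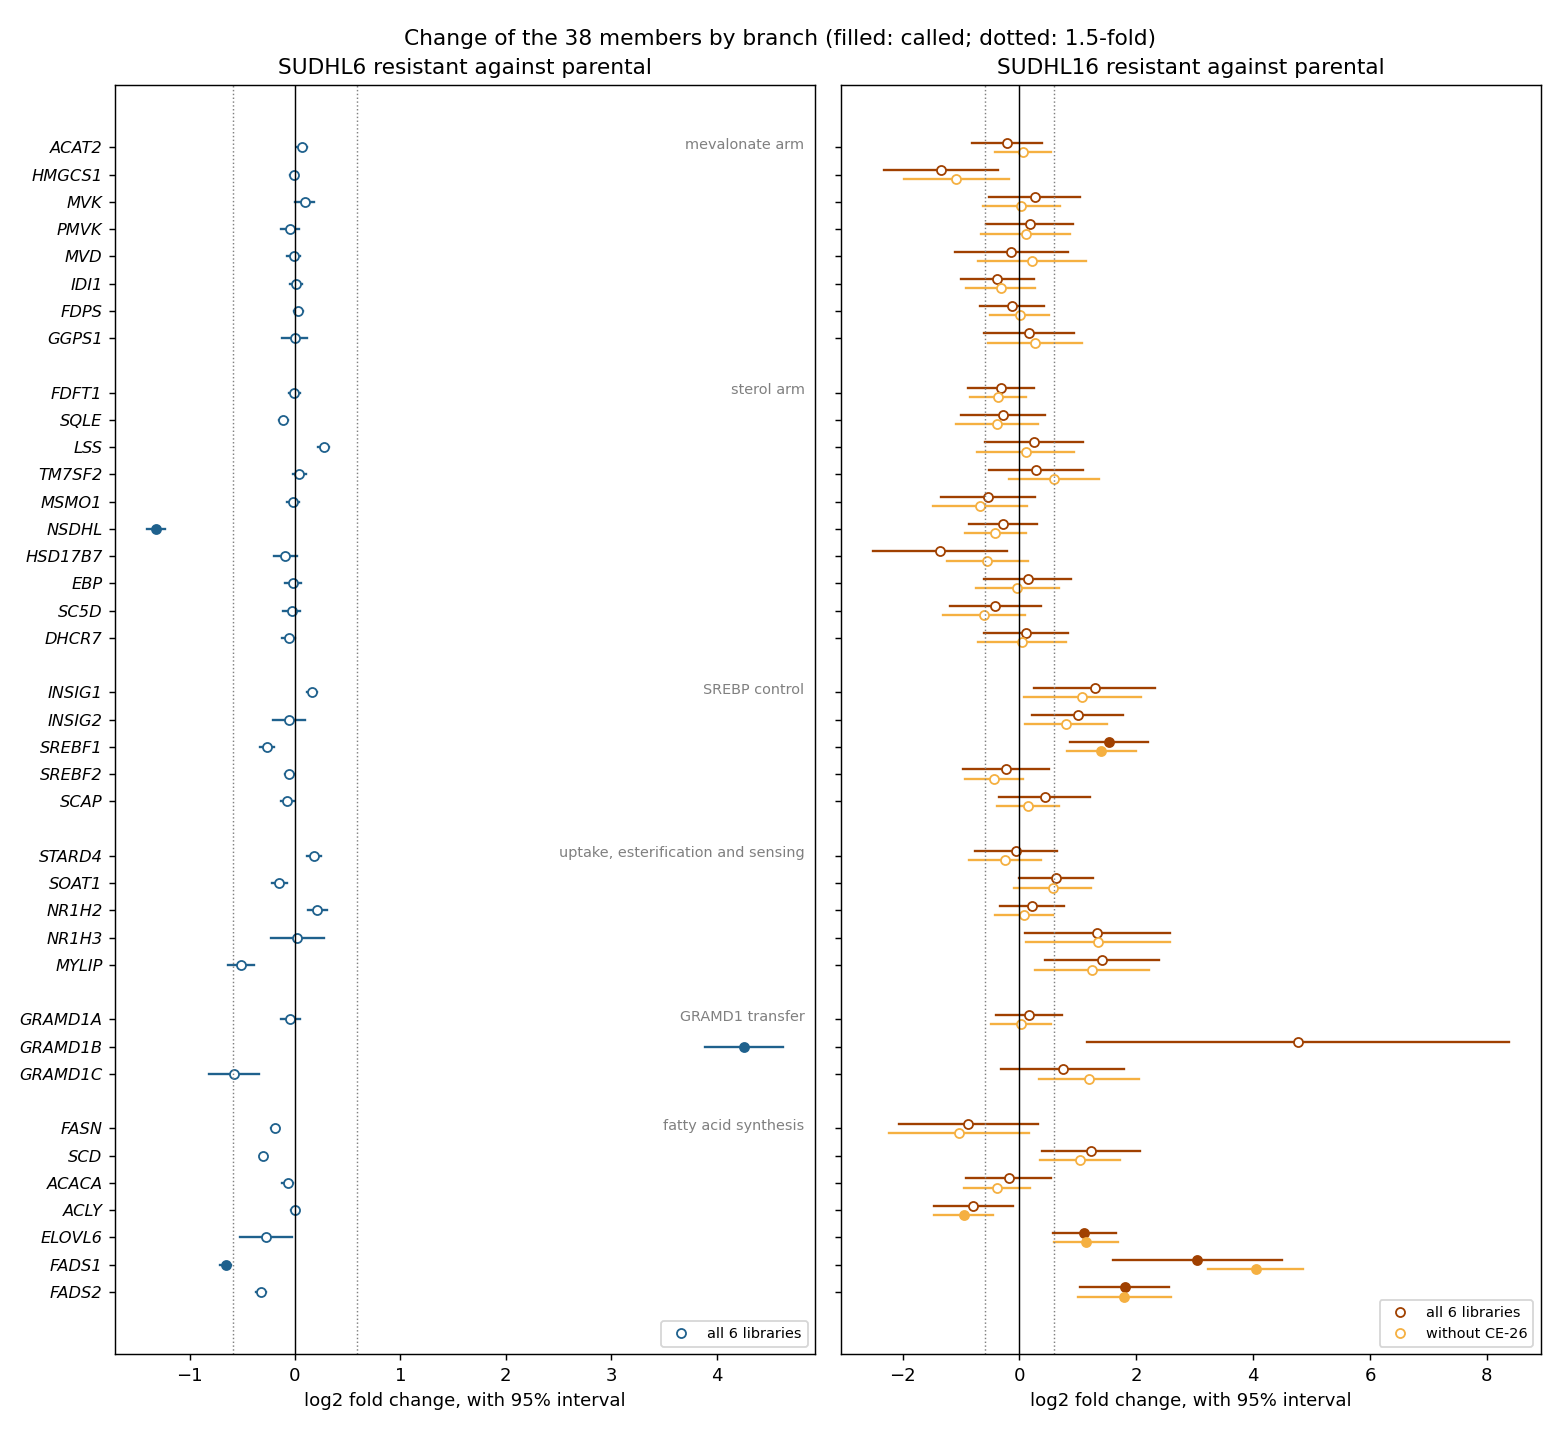
Log2 fold change of resistant against parental libraries (x axis) with its 95% interval for each of the 38 members (y axis, by branch), in SUDHL6 (left) and in SUDHL16 with all 6 libraries or without CE-26 (right, on another x scale). Filled points are called and dotted lines mark 1.5-fold. The SUDHL6 intervals are narrow and lie near 0 except for NSDHL, GRAMD1B, GRAMD1C, MYLIP and FADS1, and the SUDHL16 intervals are wide. GRAMD1B without CE-26 is left off because both parental libraries are at 0.

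The mevalonate arm starts with ACAT2 and HMGCS1, which join acetyl units, and MVK, PMVK and MVD phosphorylate and decarboxylate mevalonate to the isoprenoid that IDI1, FDPS and GGPS1 isomerise and extend. None of its 8 enzymes was called in either line. In SUDHL6 their log2 fold changes ran from -0.05 to 0.09 with a median of 0.00, and ACAT2 alone had an adjusted p under 0.05 (0.0286 by edgeR) at a log2 fold change of 0.07. HMGCS1 lay at 449.7, 455 and 453 CPM in SUDHL6-parental and 448, 449.6 and 449 CPM in SUDHL6-resistant libraries, a difference of -0.01 with a 95% interval of -0.05 to 0.02.

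In SUDHL16, 3 of the 8 mevalonate enzymes were higher and 5 lower, with a median of -0.14, but without CE-26 the direction turned, with 6 higher, 2 lower and a median of 0.05. HMGCS1, the enzyme whose SREBP control is best known among them, was at 398, 644 and 419.7 CPM in parental and 213, 271 and 90.6 CPM in resistant libraries. The groups did not overlap, and the difference was -1.35 (95% interval -2.32 to -0.37), but it did not pass adjustment (adjusted p = 0.125 by edgeR, and 0.134 at -1.08 without CE-26). The other 7 lay between -0.38 (IDI1) and 0.26 (MVK), or without CE-26 between -0.32 (IDI1) and 0.26 (GGPS1), with every interval across 0.

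In the sterol arm, FDFT1 and SQLE make squalene and its epoxide and LSS closes the ring to lanosterol, which TM7SF2, MSMO1, NSDHL, HSD17B7, EBP, SC5D and DHCR7 trim to cholesterol. NSDHL removes a carbon at the site where MSMO1 has oxidised the methyl groups, and it lies at chrX:152830967-152869729 on GRCh38. It stood at 71.6, 70.1 and 76.5 CPM in SUDHL6-parental and at 29.8, 29.4 and 28.4 CPM in SUDHL6-resistant libraries. The 2 groups were far apart, and NSDHL fell by 1.32 on the log2 scale (SE 0.0401, 0.401-fold, edgeR adjusted p = 1.47e-10). The 65 other protein-coding genes tested within 5 Mb of its start also had a median of -0.67, with 13 of them higher, and the 13 within 1 Mb had a median of -1.15, with 0 higher. Whether the region and NSDHL share a cause was not tested.

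LSS was the only other sterol enzyme of SUDHL6 with a change over 0.11 in size. It was at 119, 118 and 119.9 CPM in parental and 144, 141 and 146 CPM in resistant libraries, a difference of 0.27 (adjusted p = 1.89e-06 by edgeR) that is under 1.5-fold. SQLE differed by -0.11 (adjusted p = 0.00117 by edgeR). The 95% intervals of the 17 synthesis enzymes other than NSDHL together spanned -0.20 to 0.33, so that none of these intervals reached 1.5-fold in either direction.

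SUDHL16 gave no such bound. NSDHL was at 26.1, 19.97 and 30.1 CPM in parental and 19.4, 22.5 and 21.1 CPM in resistant libraries, overlapping groups with a difference of -0.28 (95% interval -0.87 to 0.30). Without CE-26 its groups did not overlap, at -0.41 (95% interval -0.94 to 0.12, adjusted p = 0.343 by edgeR). HSD17B7, a sterol ketone reductase, was at 42.9, 134 and 38.1 CPM in parental and 32.5, 32.6 and 17.5 CPM in resistant libraries, with the high parental value in CE-26. Its difference was -1.36 (adjusted p = 0.184 by edgeR) and -0.55 without CE-26. Of all 18 synthesis enzymes in SUDHL16, 7 were higher and 11 lower, with a median of -0.18, and 0 were called by edgeR with 2 at an unadjusted p under 0.05. Without CE-26, 9 were higher and 9 lower, with a median of -0.02 and intervals that together spanned -1.98 to 1.36.

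**Figure D2:**
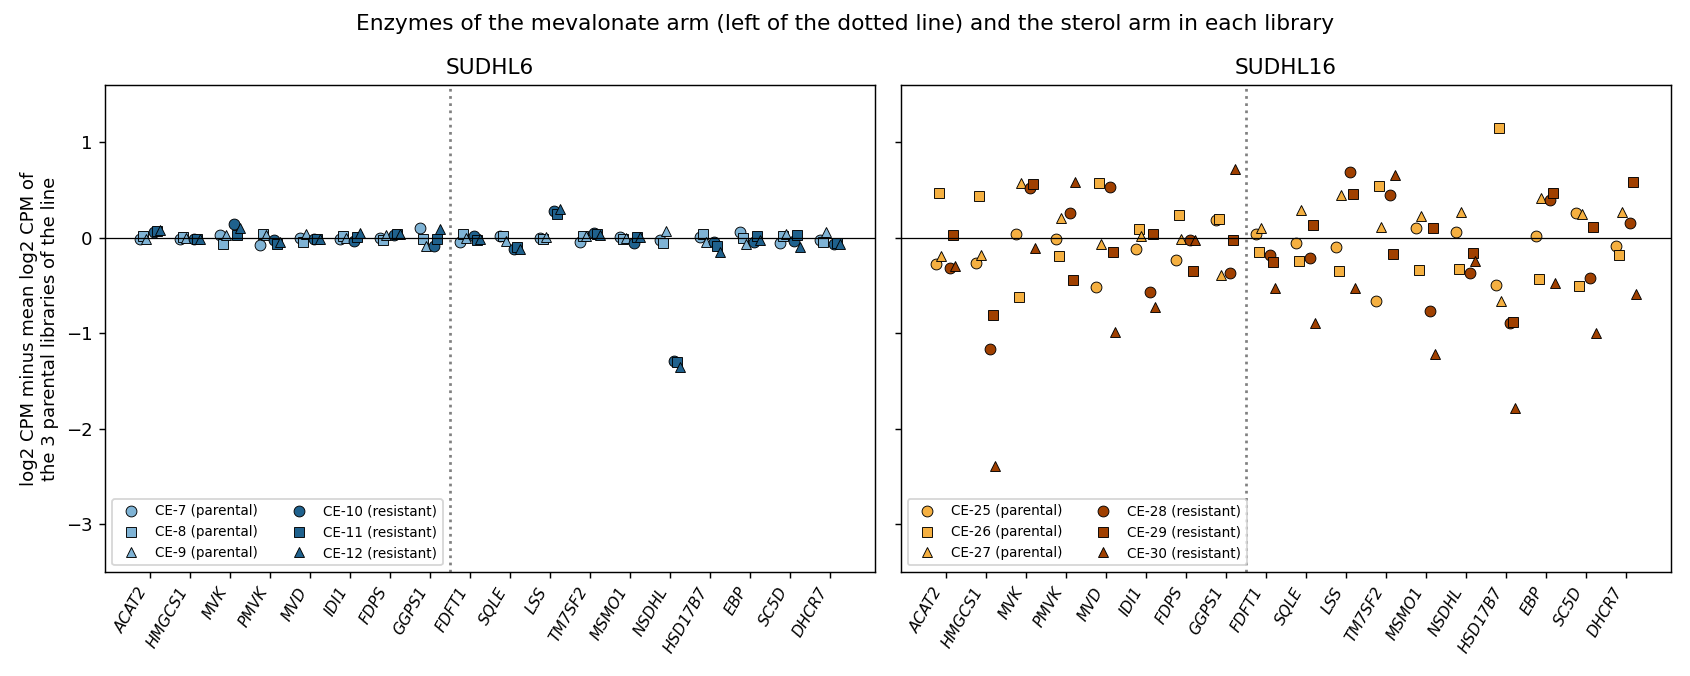
Level of the 18 synthesis enzymes in each library, as log2 CPM minus the mean log2 CPM of the 3 parental libraries of the same line (y axis), for SUDHL6 (left) and SUDHL16 (right). Each point is a library, and the dotted line parts the mevalonate arm from the sterol arm. In SUDHL6 only NSDHL and LSS leave the zero line clearly, while in SUDHL16 libraries of a group scatter widely and CE-30 (dark triangles) is often lowest.

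One SUDHL16-resistant library, CE-30, was low for much of the pathway. It was the lowest of its group for 26 of 38 members and for 12 of the 18 synthesis enzymes, against 33.7% of all genes tested. CE-29 was the highest for 25 of 38 members, against 31.0% of all genes. FASN, the fatty acid synthase, shows this spread, with 325, 330.4 and 78.6 CPM in the resistant libraries CE-28, CE-29 and CE-30. In the parental group, CE-26 was lowest for 24 of 38 members, against 44.8% of all genes. In SUDHL6, no library was lowest for more than 17 members.

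Of the 5 genes of SREBP control, SREBF1 alone was called, in SUDHL16. SREBF1, on chromosome 17p at chr17:17810399-17837002, was at 200.4, 199 and 200.02 CPM in SUDHL6-parental and at 167, 159 and 173 CPM in SUDHL6-resistant libraries, a difference of -0.27 (edgeR adjusted p = 1.38e-05) that is under 1.5-fold. In SUDHL16 it was at 154, 132 and 213 CPM in parental and at 543, 497 and 405 CPM in resistant libraries. Every resistant value lay above every parental one, and SREBF1 rose by 1.53 (SE 0.293, 2.90-fold, edgeR adjusted p = 0.0219), or by 1.40 without CE-26 (adjusted p = 0.0111). The call was lost when any SUDHL16 library other than CE-26 was left out, with adjusted p values of 0.0566 to 0.113 and differences of 1.46 to 1.77. The 59 other protein-coding genes tested within 5 Mb had a median of 0.60 (0.84 without CE-26), with 47 of them higher, and the part of the region in this rise was not tested. SREBF1 overlaps RAI1 and holds MIR33B, so reads of these genes may have been shared.

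INSIG1, an anchor of SCAP and itself a target of SREBP, was at 190.4, 191 and 197 CPM in SUDHL6-parental and 217, 212 and 219 CPM in SUDHL6-resistant libraries, a small difference of 0.16 (adjusted p = 1.08e-04 by edgeR). Its SUDHL16 levels were 209, 147 and 302 CPM in parental and at 582, 776 and 253 CPM in resistant libraries. The groups overlapped through CE-30, and the difference of 1.29 did not pass adjustment (adjusted p = 0.163 by edgeR, and 0.178 at 1.08 without CE-26). Its 31 coding neighbours within 5 Mb had a median of 0.44 (0.35 without CE-26). INSIG2, its paralogue, was at 15.7, 14.7 and 13.7 CPM in SUDHL6-parental and 14.0, 13.8 and 14.5 CPM in SUDHL6-resistant libraries, with no difference past the test (-0.06, 95% interval -0.21 to 0.10). SUDHL16 libraries had it at 19.6, 11.4 and 21.2 CPM in parental and 27.1, 49.3 and 29.5 CPM in resistant libraries, groups that did not overlap, at a difference of 0.997 (adjusted p = 0.153 by edgeR, and 0.156 at 0.80 without CE-26).

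SREBF2 and SCAP were not called in either line. SREBF2, whose promoter held the single TCACNCCAC match, was at 369, 359 and 369 CPM in SUDHL6-parental and 349, 350.3 and 358 CPM in SUDHL6-resistant libraries (-0.05, adjusted p = 0.0502 by edgeR). In SUDHL16 it was at 826, 499 and 905 CPM in parental and 699, 666 and 541 CPM in resistant libraries, where the low parental value is CE-26. The difference was -0.23 with all libraries and -0.43 without CE-26, and neither passed the test (adjusted p = 0.773 and 0.280 by edgeR). SCAP, the escort of both SREBPs, was at 70.9, 70.2 and 71.6 CPM in SUDHL6-parental and 67.8, 68.4 and 65.7 CPM in SUDHL6-resistant libraries (-0.08, adjusted p = 0.0528 by edgeR). Its SUDHL16 levels were 86.1, 43.0 and 108 CPM in parental and 119, 113 and 88.2 CPM in resistant libraries, overlapping groups with a difference of 0.43 (adjusted p = 0.563 by edgeR, and 0.769 at 0.15 without CE-26).

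Among the 5 genes of uptake, esterification and sensing, none was called in either line. MYLIP, a ubiquitin ligase that removes lipoprotein receptors, was at 35.7, 35.8 and 37.6 CPM in SUDHL6-parental and 25.5, 27.2 and 23.7 CPM in SUDHL6-resistant libraries, a difference of -0.51 that passed the test at under 1.5-fold (edgeR adjusted p = 1.35e-05). SUDHL16 libraries had it at 11.7, 6.89 and 10.4 CPM in parental and 16.5, 42.5 and 19.2 CPM in resistant libraries, groups that did not overlap (1.41, adjusted p = 0.109 by edgeR, and 1.24, adjusted p = 0.114 without CE-26). NR1H2 and STARD4, a cytosolic sterol carrier, differed by 0.21 and 0.18 in SUDHL6, and SOAT1, which esterifies cholesterol for storage, by -0.15, each with an adjusted p of at most 0.00276 by edgeR. In SUDHL16 the differences of NR1H2, STARD4, SOAT1 and NR1H3 were 0.22, -0.05, 0.62 and 1.33, with adjusted p values of at least 0.228 by edgeR. Without CE-26 they were 0.08, -0.25, 0.57 and 1.34, with adjusted p values of at least 0.176. NR1H3 was among the least abundant members, at 9 to 302 counts per library in SUDHL16 and 157 to 223 in SUDHL6, where its difference was 0.02. It overlaps ACP2 on the other strand.

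GRAMD1B gave the largest change of the 38 members in SUDHL6. The gene spans chr11:123358428-123627774 on the plus strand of GRCh38. It was near absent from SUDHL6-parental libraries, at 0.617, 1.18 and 0.614 CPM (21 to 40 counts), and stood at 14.9, 15.1 and 15.9 CPM (579 to 609 counts) in the resistant ones. The groups did not overlap, and GRAMD1B rose by 4.26 (SE 0.170, 19.2-fold, 95% interval 14.8 to 24.8-fold, edgeR adjusted p = 1.49e-09). Its 63 coding neighbours within 5 Mb had a median of 0.00, as rounded, and the 4 within 1 Mb a median of 0.28.

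In SUDHL16, GRAMD1B was at 0 counts in the parental libraries CE-25 and CE-27, at 11.02 CPM (32 counts) in CE-26, and at 60.6, 61.9 and 54.0 CPM (904 to 1315 counts) in the resistant libraries. All 3 resistant values lay above all parental ones. With all 6 libraries the difference of 4.76 did not pass adjustment (SE 1.58, adjusted p = 0.141 by edgeR). Without CE-26 it was called (adjusted p = 6.42e-05 by edgeR), and the resistant mean was at least 337-fold higher than a floor of 3 counts in each parental library. CE-26 also holds counts on more genes than the other SUDHL16 libraries, and its part in this value was not tested. The median of the 60 neighbours was 0.02 (0.03 without CE-26).

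GRAMD1A and GRAMD1C, its paralogues, were not called in either line. GRAMD1A was at 47.6, 48.2 and 48.0 CPM in SUDHL6-parental and 49.2, 44.1 and 46.2 CPM in SUDHL6-resistant libraries (-0.04, 95% interval -0.13 to 0.05). In SUDHL16 it was at 68.1, 54.1 and 86.2 CPM in parental and 88.4, 77.6 and 68.8 CPM in resistant libraries, overlapping groups with a difference of 0.17 (95% interval -0.40 to 0.73), and of 0.03 without CE-26. GRAMD1C was at 15.2, 17.9 and 19.7 CPM in SUDHL6-parental and 11.6, 13.6 and 10.2 CPM in SUDHL6-resistant libraries, without overlap, at a difference of -0.58 (adjusted p = 0.00115 by edgeR), just short of 1.5-fold. Leaving out CE-7 or CE-11 moved it past 1.5-fold (-0.67 and -0.69). Its SUDHL16 levels were 5.73, 11.4 and 4.66 CPM in parental and 8.10, 12.8 and 14.3 CPM in resistant libraries, where the high parental value is CE-26. The difference was 0.74 with all libraries (adjusted p = 0.441 by edgeR) and 1.19 without CE-26 (adjusted p = 0.0892).

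**Figure D3:**
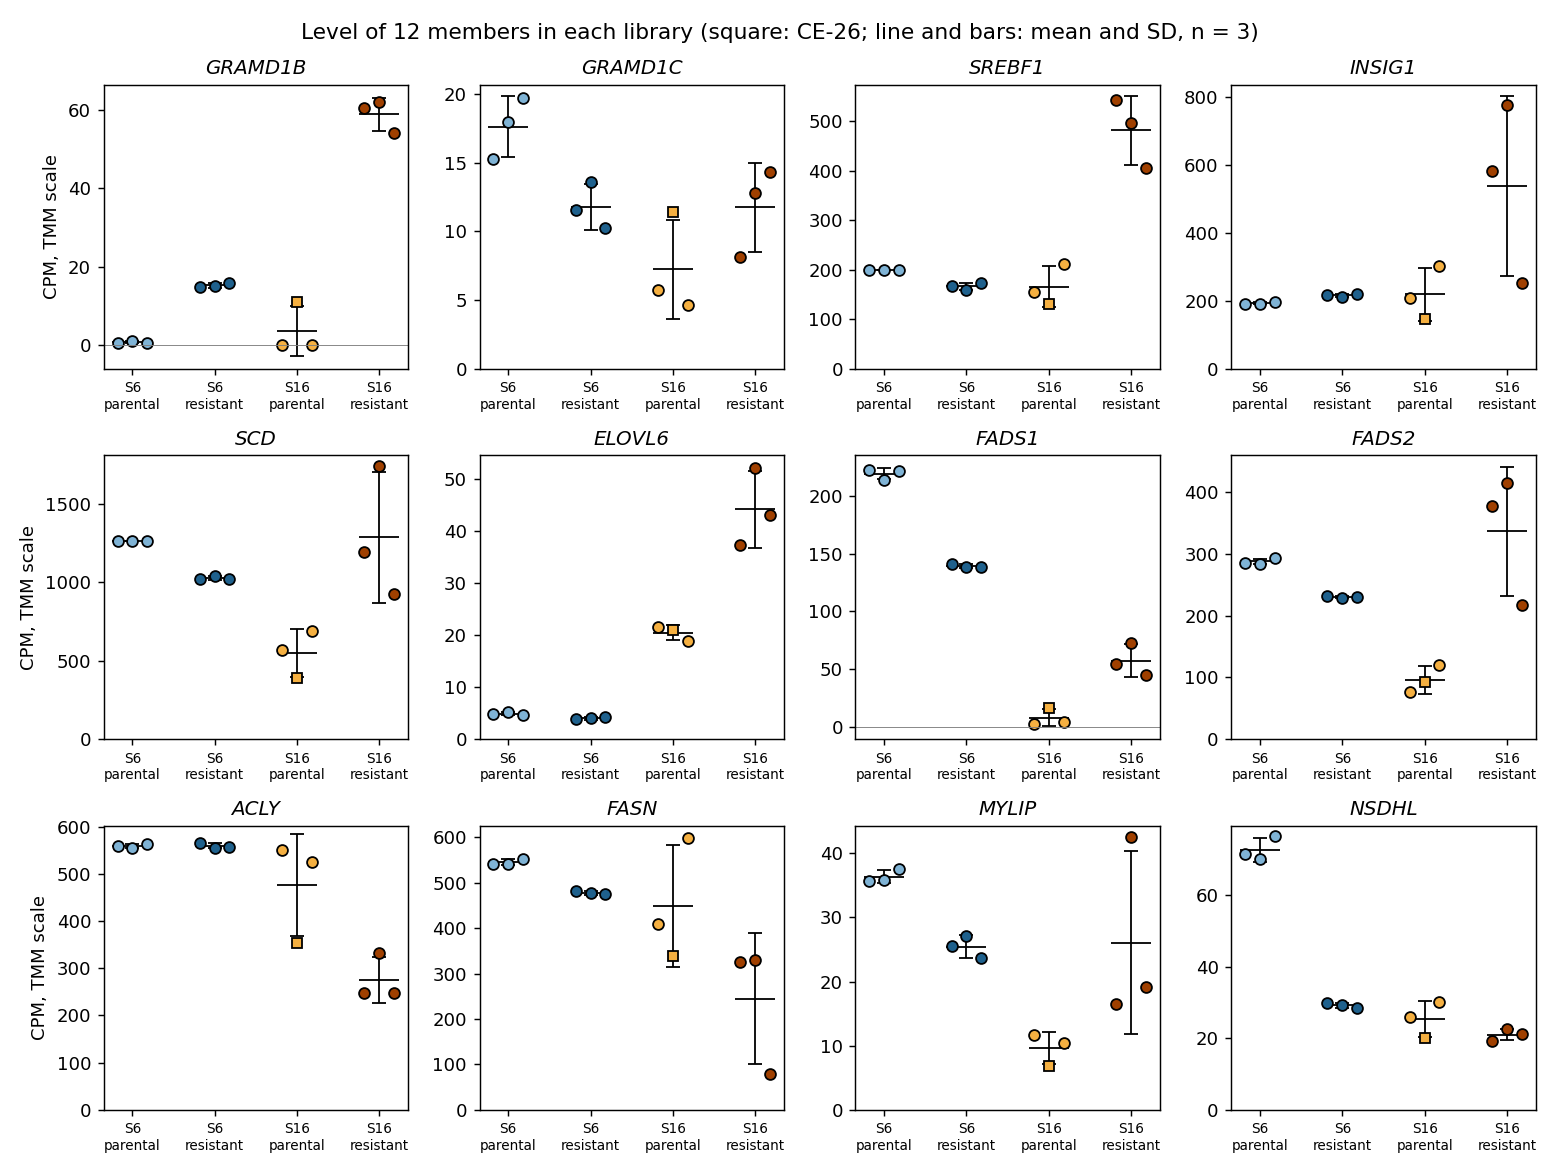
Level of 12 members in CPM on the TMM scale of the line (y axes, which differ between panels) in the 4 groups (x axis, S6 for SUDHL6 and S16 for SUDHL16). Each point is a library, squares are CE-26, and lines with bars are the mean and SD of 3 libraries. GRAMD1B is higher in the resistant libraries of both lines, while SREBF1, SCD, ELOVL6, FADS1 and FADS2 lie lower in SUDHL6-resistant and higher in SUDHL16-resistant libraries than in their parental ones.

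Of the 7 fatty acid genes, FADS1 was called in SUDHL6, and FADS1, FADS2 and ELOVL6 in SUDHL16. Citrate is split by ACLY to acetyl-CoA, ACACA makes malonyl-CoA and FASN builds palmitate, which ELOVL6 lengthens, SCD desaturates and, in polyunsaturated chains, FADS1 and FADS2 desaturate further. In SUDHL6, 6 of these 7 genes were lower, with a median of -0.28. At any fold, 5 had an adjusted p under 0.05, against 37.3% of all genes tested. In SUDHL16, 4 were higher and 3 lower, with a median of 1.11, and 3 were called, against 5.30% of all genes. Without CE-26, 4 were higher and 3 lower, with a median of 1.04, and 4 were called, against 10.0% of all genes.

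FADS1, the delta-5 desaturase, was at 223, 214 and 222 CPM in SUDHL6-parental and at 141, 138 and 138 CPM in SUDHL6-resistant libraries. It fell by 0.66 (SE 0.0236, 0.635-fold, edgeR adjusted p = 5.89e-10). It was in SUDHL16 much less abundant, at 2.70, 16.5 and 4.28 CPM (48 to 69 counts) in parental and 54.4, 72.6 and 44.4 CPM in resistant libraries. All resistant values lay above all parental ones, the highest of which is CE-26, and FADS1 rose by 3.04 (SE 0.632, 8.24-fold, edgeR adjusted p = 0.0301). Without CE-26 the rise was 4.04 (16.5-fold, adjusted p = 3.39e-04), and when any other SUDHL16 library was left out the adjusted p was 0.0562 to 0.133.

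FADS2, the delta-6 desaturase, lies beside FADS1 on chromosome 11 and overlaps it on the other strand, at chr11:61792980-61867354 against chr11:61799627-61829318. The counting strand is not given in the sources used here, so reads of the overlap may have been shared. FADS2 also overlaps FEN1 on its own strand, where stranded counting would not part the reads. FADS2 was at 286, 284 and 293 CPM in SUDHL6-parental and 232, 229 and 229 CPM in SUDHL6-resistant libraries, a difference of -0.32 (adjusted p = 8.51e-08 by edgeR) under 1.5-fold. SUDHL16 libraries had it at 75.8, 93.0 and 119.9 CPM in parental and 378, 414 and 218 CPM in resistant libraries, without overlap. FADS2 rose by 1.81 (SE 0.333, 3.50-fold, edgeR adjusted p = 0.0192), and by 1.79 without CE-26 (adjusted p = 0.0150). Leaving out CE-25, CE-28 or CE-29 raised the adjusted p to 0.0876, 0.0901 and 0.101. The 183 other coding genes tested within 5 Mb of the pair had a median of 0.05 (0.03 without CE-26).

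ELOVL6, the elongase of palmitate, was scarce in SUDHL6, at 4.82, 5.19 and 4.69 CPM in parental and 3.80, 4.01 and 4.32 CPM in resistant libraries (-0.28, adjusted p = 0.0748 by edgeR). In SUDHL16 it was at 21.5, 21.01 and 18.8 CPM in parental and 37.4, 52.1 and 43.0 CPM in resistant libraries. It rose by 1.11 (SE 0.233, 2.16-fold, edgeR adjusted p = 0.0312) and by 1.14 without CE-26 (adjusted p = 0.0214). With any other SUDHL16 library left out, its adjusted p was 0.0711 to 0.151. Its coding neighbours had a median of -0.20 (-0.08 without CE-26).

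SCD was at 1264, 1267 and 1265 CPM in SUDHL6-parental and 1019, 1043 and 1022 CPM in SUDHL6-resistant libraries, a difference of -0.30 (adjusted p = 6.04e-09 by edgeR) under 1.5-fold. Its SUDHL16 levels were 572, 389.9 and 689 CPM in parental and 1194, 1742 and 926 CPM in resistant libraries. The groups did not overlap, but the difference of 1.23 did not pass adjustment (adjusted p = 0.106 by edgeR, and 0.0644 at 1.04 without CE-26).

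The enzymes on the way to palmitate were not higher in SUDHL16. ACLY was at 558, 555 and 564 CPM in SUDHL6-parental and 566, 555 and 558 CPM in SUDHL6-resistant libraries, with a difference of 0.00 (95% interval -0.03 to 0.04). SUDHL16 libraries had it at 549.99, 353 and 526 CPM in parental and 247, 332 and 248 CPM in resistant libraries. With all libraries the difference was -0.79 (adjusted p = 0.186 by edgeR), and without CE-26 ACLY fell by 0.96 (SE 0.218, 0.516-fold, edgeR adjusted p = 0.0289), a call lost when CE-25, CE-27 or CE-28 was left out as well (adjusted p = 0.254, 0.204 and 0.0667). FASN was at 541, 542 and 552 CPM in SUDHL6-parental and 482, 477 and 475 CPM in SUDHL6-resistant libraries (-0.19, adjusted p = 1.71e-06 by edgeR). In SUDHL16 it was at 409, 339 and 599 CPM in parental libraries, against the resistant values given above, at a difference of -0.88 (adjusted p = 0.416 by edgeR, and 0.289 at -1.03 without CE-26). ACACA differed by -0.07 in SUDHL6 (adjusted p = 0.0244 by edgeR) and by -0.18 in SUDHL16 (adjusted p = 0.820, and 0.405 at -0.39 without CE-26). All 3 genes lie on chromosome 17q, and in SUDHL16 the coding genes within 5 Mb of ACLY, ACACA and FASN had medians of -0.38, -0.55 and -0.72 (-0.39, -0.50 and -0.45 without CE-26). Their part in these values was not tested.

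**Figure D4:**
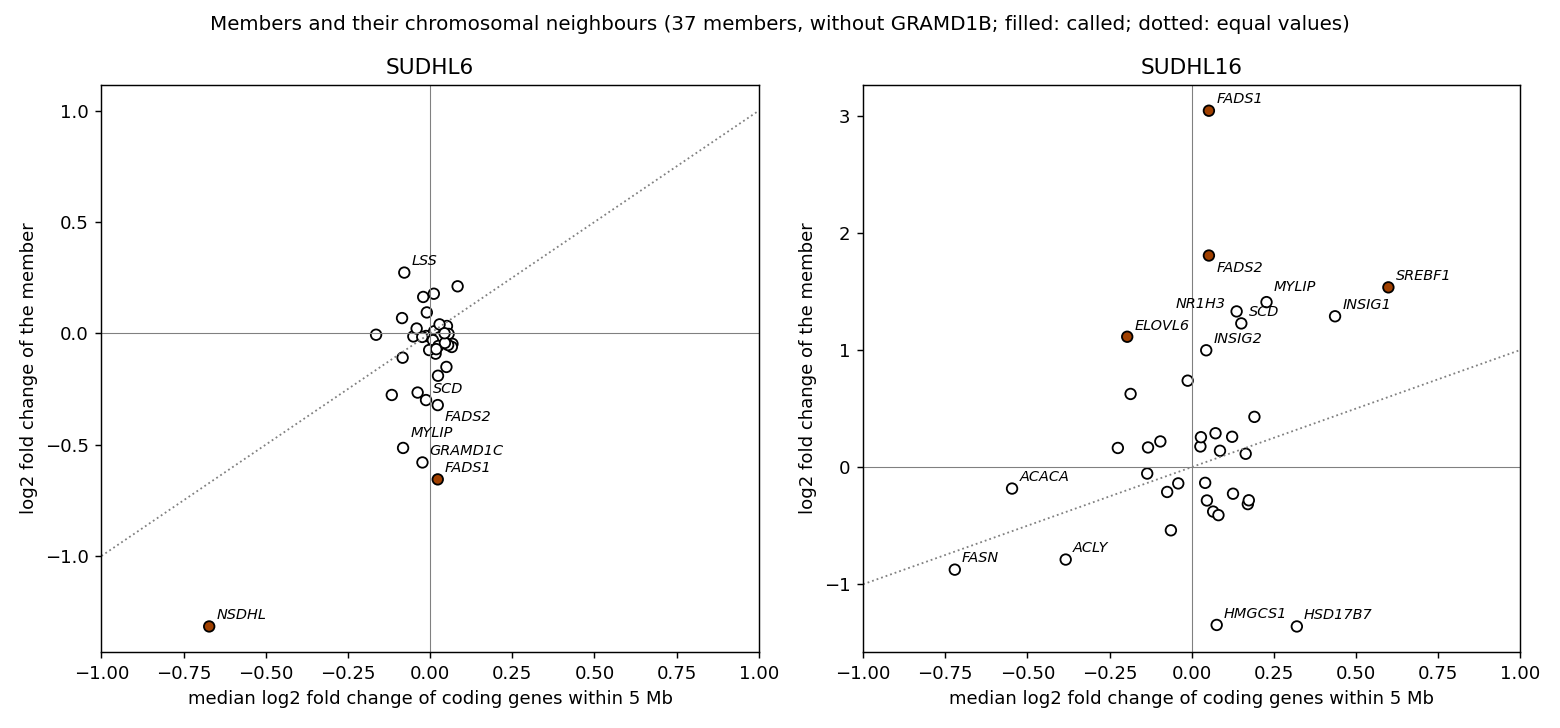
Log2 fold change of each of 37 members (y axis) against the same quantity for its coding neighbours, as their median over genes starting within 5 Mb (x axis), in SUDHL6 (left) and SUDHL16 (right, on another y scale). Filled points are called, and the dotted line marks equal values. NSDHL in SUDHL6 and SREBF1, INSIG1, ACLY, ACACA and FASN in SUDHL16 have a neighbour median well off 0 on their own side, while the neighbours of FADS1 and FADS2 lie near 0. GRAMD1B is left off because its change is off the scale.

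Whether the lines differed was tested as an interaction in 1 edgeR fit of all 12 libraries, in which a member was called at an adjusted p under 0.05. There were 7 such members of 38 (18.4%), against 7.16% of all 19621 genes, and for all 7 the change was more positive in SUDHL16, a direction in which 4.34% of all genes were called. They were SREBF1 (difference of log2 fold changes 1.82, adjusted p = 0.00219), FADS1 (3.88, adjusted p = 0.00240), FADS2 (2.16, adjusted p = 0.00196), ELOVL6 (1.42, adjusted p = 0.00388), SCD (1.55, adjusted p = 0.0306), MYLIP (1.92, adjusted p = 0.0277) and NSDHL (1.05, adjusted p = 0.0245). SREBF1, FADS1, FADS2 and ELOVL6 passed in all 12 fits that each left out 1 library. NSDHL, MYLIP and SCD did not pass in any of the 6 fits that left out a SUDHL6 library, which left 4 calls. This fit shares 1 spread, with a coefficient of variation of 0.369, over lines that had 0.0516 and 0.468 when fitted alone. Its p-values, also with a library left out, can therefore be too small for changes in SUDHL16 and too large for those in SUDHL6. The share of all genes called with a SUDHL6 library left out was not counted. Within SUDHL16, the calls of SREBF1, FADS1 and ELOVL6 were lost when any library other than CE-26 was left out.

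SCD, ELOVL6, FADS1 and FADS2, the desaturases and the elongase, were thus all lower in resistant SUDHL6, by -0.66 to -0.28, and all higher in resistant SUDHL16, by 1.11 to 3.04. They were grouped after these values were seen. Among them, FADS1 alone was called in SUDHL6, where ELOVL6 did not pass adjustment, and SCD was not called in SUDHL16. For the synthesis enzymes other than NSDHL, 0 of 17 differed between the lines (smallest adjusted p = 0.106 by edgeR, with 2 at an unadjusted p under 0.05). GRAMD1B, which was called in SUDHL6 and, with CE-26 left out, in SUDHL16, had a difference between the lines of 0.90 with a 95% interval of -2.65 to 4.46. Without CE-26, 10 of 38 members were called, against 14.0% of 20959 genes, and the 3 gained were GRAMD1B, GRAMD1C and ACLY. The GRAMD1B difference there (9.28, adjusted p = 7.27e-05 by edgeR) rests on 0 counts in the remaining SUDHL16-parental libraries. It therefore gives no size, and GRAMD1B was higher in the resistant libraries of both lines. Over all 38 members, 18 had the same sign in both lines and 20 opposite signs.

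Of 35 further genes of the pathway, 32 were tested in SUDHL6, of which 2 rose and 1 fell, and 29 in SUDHL16, of which 1 rose and 1 fell, beside the 8.96% and 5.30% of all genes called in these lines. In SUDHL6, LPIN1, a phosphatidate phosphatase of lipid synthesis, rose by 0.62 (178 ± 0.277 to 272 ± 2.47 CPM, SD, n = 3, edgeR adjusted p = 2.11e-10). SOAT2, the second cholesterol acyltransferase, rose by 0.64 (2.53 ± 0.128 to 3.96 ± 0.284 CPM, edgeR adjusted p = 0.00186). NPC1, which exports cholesterol from lysosomes, fell by 0.82 (81.4 ± 3.19 to 45.9 ± 2.51 CPM, edgeR adjusted p = 1.25e-08). In SUDHL16, LPIN1 fell by 1.63 (339.7 ± 65.6 to 109.8 ± 30.1 CPM, edgeR adjusted p = 0.0209). ACSL1, which activates long-chain fatty acids, rose by 2.41 there (10.5 ± 1.35 to 55.2 ± 15.7 CPM, edgeR adjusted p = 0.00287). Without CE-26, 6 of 30 further genes were called in SUDHL16, beside 10.0% of all genes, with 4 higher and 2 lower, ACSL1 and LPIN1 among them.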

How the data were processed

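RNA from parental and venetoclax-resistant SUDHL6 and SUDHL16 cells was sequenced in 12 libraries, 3 per group as the labels assign them. The authors trimmed reads with Trim Galore, aligned them to GRCh38 with HISAT2 and assembled transcripts with StringTie. They deposited whole-number read counts per gene without normalization. The counting tool, annotation and strand setting are not given in the sources used here, so overlapping genes may share reads. Symbols and positions came from GENCODE release 44, which matched 56558 of 60675 identifiers (93.2%), and promoters from RefSeq.

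Each line was fitted alone with edgeR 4.0.16 (R 4.3.3), using filterByExpr, TMM scaling and the two-sided quasi-likelihood test with Benjamini-Hochberg adjustment. A gene was called at an adjusted p under 0.05 and at least 1.5-fold, and SUDHL16 was also fitted without CE-26. Differences between the lines were interactions in a fit of all libraries, with no fold limit. RPKM divided CPM by the union of exons. Floors of 3 counts cover counting error only. Neighbours were tested coding genes starting within 5 Mb.

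The members, their branches, the 35 further genes and the markers were chosen with earlier results of these data known. One marker is not reported here. All members are named. Values in every library are given for members called within a line, for all GRAMD1 and SREBP control members, and for others on which a result turned. Of the further genes, those called in SUDHL6 or SUDHL16 are given, up to 6 per line. Tests were run first on simulated counts with known changes.

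Alternatives were DESeq2 1.42.0, upper-quartile scaling, library totals, no filter, glmTreat, limma 3.58.1 voom with quality weights, protein-coding genes only, all libraries in a single fit, each library left out, windows of 1 Mb, and promoters without bases after the start. A single fit without CE-26, and the count of line differences for all genes without it, were added after seeing the data. Tables and plots were made with matplotlib 3.10.9, numpy 2.4.6 and pandas 2.3.3 under Python 3.11.15.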

Additional observations from a re-analysis of the deposited data

Results flagged for a closer look

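For 7 members and 3 further genes, the change with resistance differed between SUDHL6 and SUDHL16 in the interaction test of edgeR over all 12 libraries. Among the members, SREBF1 (adjusted p = 0.00219), SCD (adjusted p = 0.0306), ELOVL6 (adjusted p = 0.00388), FADS1 (adjusted p = 0.00240) and FADS2 (adjusted p = 0.00196) were lower in resistant SUDHL6 and higher in resistant SUDHL16, as was MYLIP (adjusted p = 0.0277). NSDHL differed (adjusted p = 0.0245) with -1.32 in SUDHL6 against -0.28 in SUDHL16. However, NSDHL, MYLIP and SCD did not pass in any fit that left out a SUDHL6 library. SCD and MYLIP were also not called within either line. The limit of a spread shared between the lines holds here too. Among the further genes, LPIN1 rose in SUDHL6 and fell in SUDHL16 (adjusted p = 0.00177). ACSL1 differed with an adjusted p of 2.15e-04, rising in SUDHL16 by 2.41 while its mean was 22.6 ± 0.306 CPM in SUDHL6-parental and 20.8 ± 0.665 CPM in SUDHL6-resistant libraries (SD, n = 3). SOAT2 differed with an adjusted p of 0.00750, but it failed the filter on low counts in SUDHL16 alone, so its change there was not tested. It was at 0 counts in all SUDHL16-parental libraries and at 11 to 51 in the resistant ones. Its fitted difference of 7.57 rests on those parental counts of 0 and gives no size. In both lines its resistant libraries lay above the parental ones. No group had more than 3 libraries, so single libraries were not tested for standing apart.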

How the results depend on the processing

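The 3 SUDHL6 members called were called under all 7 other tests, scalings and filters, the single fit of all 12 libraries called 1 (NSDHL), and 3 to 4 members were called when each library was left out. For SUDHL16, 4 members were called with all libraries, 9 with DESeq2, 2 with glmTreat, 12 with voom and 13 in the single fit of all libraries, and 0 to 6 with a library left out. Without CE-26, the 6 became 11 with no filter, 11 with voom and 12 in the single fit of the other 11 libraries, and 2 to 8 with a further library left out. The 7 line differences became 4 with no filter and 13 with voom, and 4 to 10 with a library left out, the lowest in each fit without a SUDHL6 library and the highest without CE-26. The cause of these moves was not tested. Under the other tests, scalings and filters, in single fits and with a library other than CE-26 left out, calls were counted for members only. The share of all genes called was not counted there. A larger or smaller count there is therefore not a stronger or weaker result for the members.

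Among uncalled values near 0, the direction turned for ACLY in SUDHL6 (-0.00321 without CE-8 and -0.00719 without CE-10, with left-out values up to 0.00645) and for GRAMD1A in SUDHL16 without CE-26 (-0.0232 with upper-quartile scaling, -0.00959 with library totals, -0.00904 in the single fit, -0.123 without CE-25 as well and -0.0704 without CE-28 as well, with left-out values up to 0.200). The line difference turned for GRAMD1B (-0.268 with DESeq2, -0.0446 without CE-25 and -0.0264 without CE-27, against a fitted 9.28 without CE-26 that depends on the prior count because the other parental libraries are at 0) and for SREBF2 (0.0539 without CE-27, and down to -0.428 without CE-26). Of all values recomputed for single genes, 666 kept their direction and side of the threshold, 63 lost and 35 gained a call, and 11 turned. With neighbours within 1 Mb in place of 5 Mb, 33 medians stayed and 6 moved, and in SUDHL16 those of SREBF1, ACLY, ACACA and FASN were 0.88, -0.20, -0.71 and -0.91. No paired analysis was possible because the labels carry no replicate numbers. A left-out library that leaves 1 sample in an arm assumes that it varies like the others. Depth limits SUDHL16 more than SUDHL6, since 12 members had fewer than 100 counts in at least 1 SUDHL16 library (4 without CE-26) and 1 in SUDHL6.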
